A study of Sus scrofa with 9 samples.

Results

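TWIST1, TWIST2, SNAI1, SNAI2, ZEB1, ZEB2, PRRX1 and TCF21 encode transcription factors that mesenchymal cells use to establish and keep their identity. They were chosen by name, with earlier results of these data known, and all 8 were present in both deposited tables of 5-hydroxymethylcytosine (5hmC), which held 18933 and 18992 genes. The study took mesenchymal stem/stromal cells (MSCs) from subcutaneous abdominal fat of female domestic pigs. Lean-MSCs came from pigs fed standard chow and Obese-MSCs from pigs fed a high-fat/high-fructose diet for 16 weeks, with 3 libraries in each group. Another group of 3 libraries came from Obese-MSCs cultured with vitamin-C at 50 μg/mL for 48 h, a cofactor of the TET enzymes that oxidize 5-methylcytosine to 5hmC. All cells were expanded in culture in a medium with platelet lysate before DNA was taken, and the labels name no genetic change. The paper states that this medium already held some vitamin-C, which may have led to an underestimate of its effect. Untreated cells therefore lacked only the added vitamin-C. The 9 libraries were numbered by the submitters as 1 to 3 (untreated Obese), 4 to 6 (treated Obese) and 7 to 9 (Lean). Those numbers do not say which treated culture, if any, belongs with which untreated one. The labels do not say whether libraries within the Obese groups share an animal. In the paper, Obese-MSCs of the third passage were grown on either with or without vitamin-C. Tests of vitamin-C treated the libraries as unpaired except where a matching is named, so a pairing by animal may have been ignored.

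As background, TWIST1 and TWIST2 are basic helix-loop-helix (bHLH) factors that bind DNA as dimers with E proteins. SNAI1, SNAI2, ZEB1 and ZEB2 are zinc finger repressors that silence epithelial genes such as CDH1, and together with TWIST1 they drive the epithelial-to-mesenchymal transition. PRRX1 is a homeobox factor of limb and connective tissue mesenchyme, and TCF21 is a bHLH factor of stromal and visceral mesenchyme, including adipose stroma. The 5hmC mark in gene bodies is generally found at actively transcribed genes, but here it was measured without RNA, so the values describe the mark and not expression of these factors.

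Each value was the authors' normalized count of 5hmC-enriched reads over the exons of a gene, scaled within its table. Library medians over genes lay between 11.9 and 14.2 normalized counts. Low values clustered at steps, the most frequent lying between 0.74 and 1.29 normalized counts in the different libraries, which is about the weight of 1 read. The MSC surface markers NT5E, THY1 and ENG summed to between 94.8 and 123 normalized counts in Obese libraries, and to between 80.1 and 88.4 in the Lean libraries. The exclusion markers CD14, CD34 and PTPRC summed to between 60.6 and 71.6 and between 66.9 and 89.4. PTPRC, which encodes the leukocyte antigen CD45 that MSCs lack, alone averaged 46.9 and 59.3 normalized counts. CD14 was listed at 0 in every Lean library. Levels of different genes were not compared, so these sums are no check of the labelled cell type. In these bulk cultures a smaller share of cells carrying the mark and less mark per cell cannot be told apart.

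The 8 genes lie on 6 chromosomes of Sscrofa11.1. TWIST1 occupies chromosome 9 from 88286911 to 88290131, between HDAC9 and FERD3L, and TWIST2 occupies chromosome 15 from 138228640 to 138276341, next to HDAC4. Both TWIST genes therefore had a class II histone deacetylase gene as a neighbour. SNAI1 is on chromosome 17 from 51546446 to 51552498. SNAI2 (chromosome 4 from 79264880 to 79268475) and PRRX1 (chromosome 4 from 80427682 to 80502689) were 1.16 Mb apart. ZEB1 is on chromosome 10 from 42013114 to 42216139, ZEB2 on chromosome 15 from 7498879 to 7631347, and TCF21 on chromosome 1 from 29975280 to 29978273. In the RefSeq annotation 1 gene of the tables overlapped the span of ZEB1 (ZNF438) and 1 that of ZEB2 (LOC110257199), and reads over exons shared with them could not be separated. No other member was overlapped by a gene of the tables. Exon lengths were not used here, so levels were compared between groups for each gene and not between genes.

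In Obese-MSCs compared with Lean-MSCs, TWIST1 was the member with a higher 5hmC level by the study's criteria as applied here to the deposited values, which ask for an unadjusted two-sided p-value of 0.05 or less together with an Obese over Lean ratio of 1.4 or more, or of 0.7 or less. It had 6.34, 4.73 and 3.64 normalized counts in Obese libraries 1, 2 and 3. Lean libraries 7, 8 and 9 had 1.19, 1.98 and 3.07. Every Obese library lay above every Lean library, though the lowest Obese and the highest Lean value were close together. The means were 4.90 ± 1.36 and 2.08 ± 0.946 (SD, n = 3 each), a ratio of 2.36 and a log2 ratio of 1.24. The exact permutation test, two-sided and over 20 arrangements, gave p = 0.1, the smallest value that 3 against 3 libraries allow.

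The TWIST1 values were low, at the 18.8th percentile of all genes by mean. Divided by the step of their own library they came to 8.57, 5.03 and 2.98 in the Obese and 1.03, 2.00 and 2.98 in the Lean libraries, so that the comparison rests on a few reads per library. This mean was below the limit for the limma fit over the upper 80% of genes. In a limma fit over all 18933 genes, the difference on the log2(value + 1) scale was 0.96 (95% interval -0.06 to 1.98), with an unadjusted limma p of 0.0643 and a Benjamini-Hochberg adjusted p of 0.800. Leaving out Obese library 1 or 2 or any of the Lean libraries removed TWIST1 from the called genes. Its log2 ratio then lay between 0.96 and 1.63, and without Obese library 3 it was 1.41 and the call remained.

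One of the 8 members was thus called high and 0 low. Of all 18933 genes, 2.07% were called high, 2.43% low and 4.5% in either direction. The groups did not overlap for 1 of the 8 members, which was high in Obese-MSCs, against 5.7% of all genes that were high, 6.06% that were low and 11.8% in both directions together. Of the 7 members in the limma fit, 0 passed an adjusted p of 0.05 and 0 had an unadjusted p of 0.05 or less, while 0 and 1031 (6.81%) of 15146 genes did so. The median log2 ratio was 0.01 both for the 8 members and over all genes. The members' median was -0.11 without Lean library 9 and 0.20 without Obese library 3, while that over all genes lay between -0.00040 and 0.02 under other scalings or with 1 library left out.

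TWIST2, the paralogue of TWIST1, had its lower mean in Obese-MSCs. Its 5hmC level was 10.1, 4.65 and 13.8 normalized counts in Obese libraries 1, 2 and 3, and 22.3, 10.9 and 13.4 in Lean libraries 7, 8 and 9. Obese library 2 was the lowest and Lean library 7 the highest, while the other four overlapped between 10.1 and 13.8. The means of 9.55 ± 4.62 and 15.5 ± 6.0 (SD, n = 3 each) gave a log2 ratio of -0.70, with p = 0.3 in the two-sided exact permutation test. In limma the difference was -0.70 (95% interval -1.53 to 0.13, adjusted p = 0.785). The ratio of 0.615 was past the fold threshold of the study, but the p-value criterion was not met. The log2 ratio was -0.37 without Obese library 2 and -0.35 without Lean library 7, neither past the fold threshold, and -1.07 without Obese library 3. The log2 ratios of the TWIST genes thus had opposite signs, and the difference between them was not tested.

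**Figure D1:**
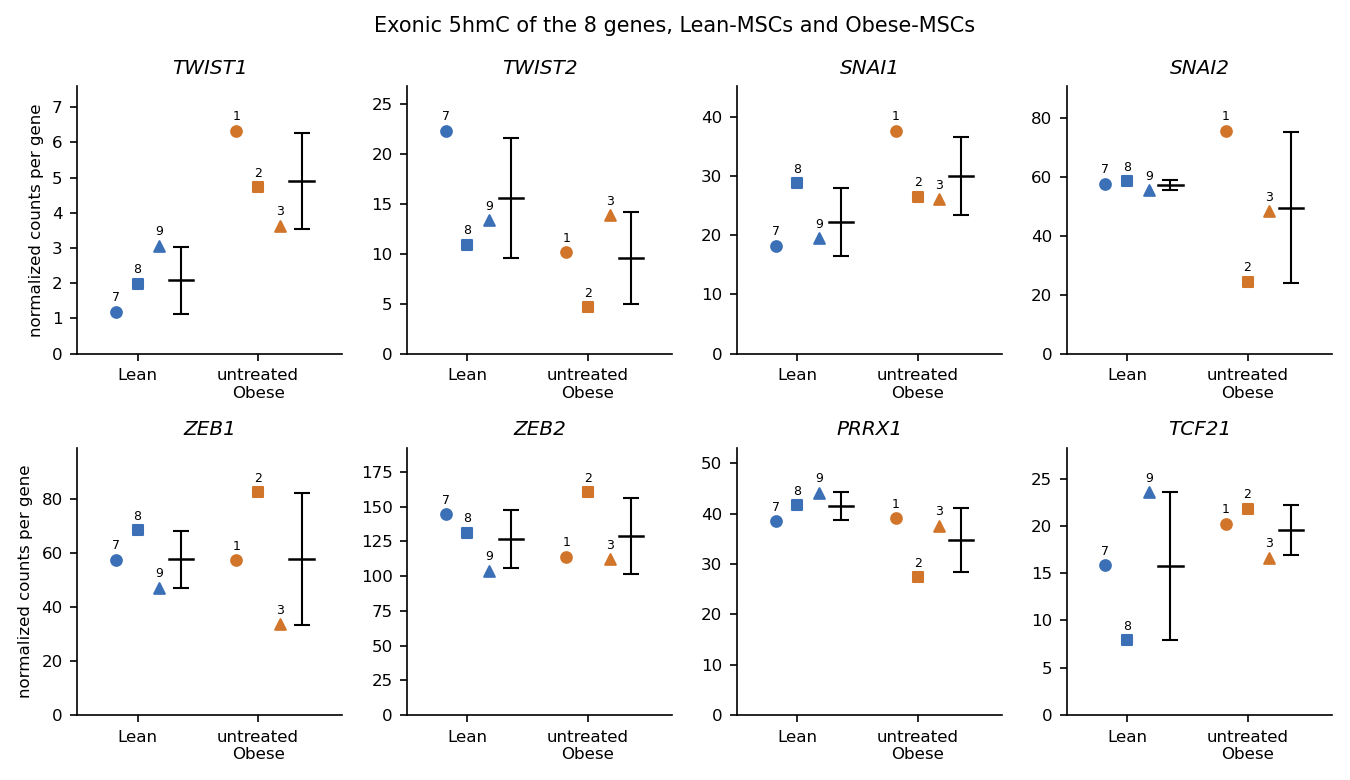
Exonic 5hmC in normalized counts (vertical axes, from 0) of each member in the 3 Lean libraries (blue) and the 3 untreated Obese libraries (orange), with library numbers beside the points and the mean ± SD as a bar to their right. Only for TWIST1 do the groups not overlap, and SNAI2 had nearly equal Lean values beside Obese values from 24.4 to 75.8.

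SNAI1 and SNAI2, the Snail and Slug repressors, both overlapped between diets. Obese libraries carried 37.7, 26.5 and 26.1 normalized counts over SNAI1, and Lean libraries 18.2, 28.8 and 19.5. Obese library 1 was the highest, and Lean library 8 lay above the other two Obese libraries. The SNAI1 means were 30.1 ± 6.60 and 22.2 ± 5.76 (SD, n = 3 each), with a log2 ratio of 0.44 and p = 0.3 in the exact permutation test. Over SNAI2 the Obese libraries carried 75.8, 24.4 and 48.3 normalized counts, but the Lean libraries 57.7, 58.6 and 55.5. The Lean libraries lay between the highest and the second Obese value, and the means were 49.5 ± 25.7 and 57.2 ± 1.6 (SD, n = 3 each). The difference in spread between these groups was not tested. The coefficient of variation of SNAI2 was 51.9% in Obese-MSCs and 2.79% in Lean-MSCs. Over the genes of the upper 80% the median coefficient was 25.7% and 23.8%. In Lean-MSCs 5% of these genes fell below 6.01%, and in Obese-MSCs 5% lay above 65.0%. The log2 ratio of SNAI2 was -0.21 (exact permutation test, p = 0.7) and turned to 0.12 without Obese library 2.

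ZEB1 and ZEB2, the paired zinc finger and homeodomain repressors of CDH1, had nearly equal means in both diets. The ZEB1 level was 57.5, 82.7 and 33.6 normalized counts in Obese-MSC libraries against 57.7, 68.5 and 47.3 in Lean ones. For ZEB2 the Obese libraries had 114, 160 and 112 normalized counts, and the Lean libraries 144, 131 and 104. Obese library 2 had the highest value of both genes, the reverse of its place for SNAI2 and TWIST2, where it was lowest. The ratio of means was 1.00 for ZEB1 and 1.02 for ZEB2, and the exact permutation test gave p = 1 for each. ZEB2 had the narrowest limma interval of the members, which ran from -0.42 to 0.46 on the log2 scale, or from a ratio of 0.748 to 1.37. The study's fold thresholds of 1.4 and 0.7 lay outside that interval. The interval of ZEB1 ran from -0.67 to 0.53.

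PRRX1 and TCF21, the factors of connective tissue and stromal mesenchyme, also overlapped. The PRRX1 level was 39.1, 27.4 and 37.6 normalized counts in Obese-MSC libraries against 38.5, 41.7 and 44.1 in Lean ones. It was lowest in Obese library 2, and Obese library 1 exceeded Lean library 7. Its means of 34.7 ± 6.35 and 41.5 ± 2.82 (SD, n = 3 each) gave a log2 ratio of -0.26 (exact permutation test, p = 0.2). TCF21 had 20.2, 21.8 and 16.6 normalized counts after the obesogenic diet, and 15.8, 7.93 and 23.6 after standard chow. Its Obese values all lay between the second and the highest Lean value. The TCF21 means were 19.6 ± 2.66 and 15.8 ± 7.81 (SD, n = 3 each), with a log2 ratio of 0.31 (exact permutation test, p = 0.6) that came to -0.01 without Lean library 8. Neither gene passed in limma, where the adjusted p was 0.890 for PRRX1 and 0.880 for TCF21.

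**Figure D2:**
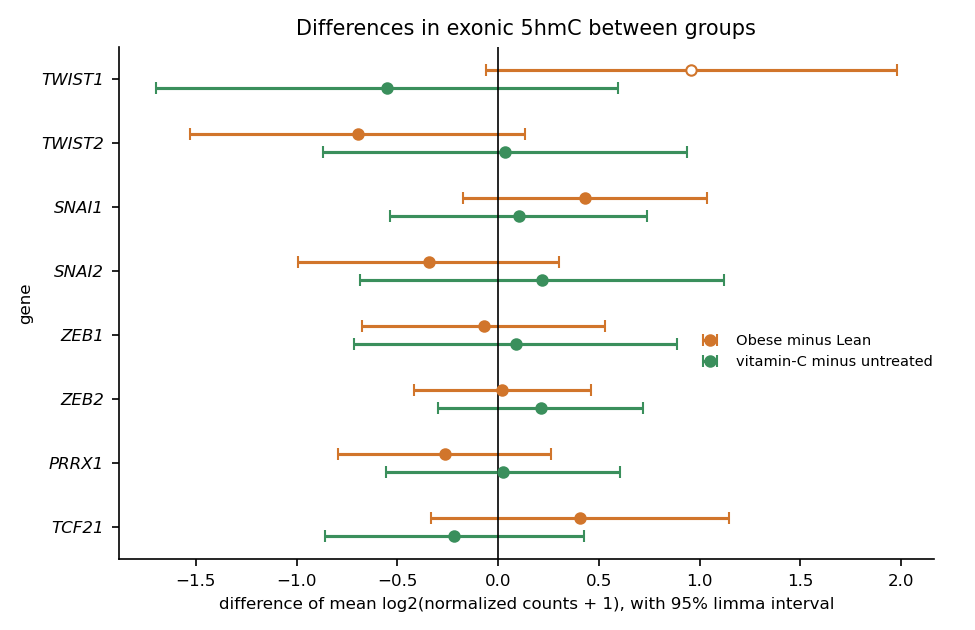
Difference of the group means of log2(normalized counts + 1) for each member, with 95% intervals from limma, for untreated Obese minus Lean (orange) and vitamin-C minus untreated (green). The open symbol of TWIST1 comes from the fit over all genes, and all 16 intervals include 0.

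The comparison of treated with untreated Obese-MSCs asks whether vitamin-C added to that of the medium moved the mark at these genes. It was made within the second table, which the authors normalized separately. The untreated libraries are the same as above, so a member that was high in them tends to appear as low against them after treatment. None of the 8 members met the study's criteria, against 1.11% of all 18992 genes called high, 0.806% called low and 1.92% in either direction. The groups overlapped for all 8 members, while of all genes 3.24% were higher without overlap, 2.67% lower and 5.91% either. Without the fold threshold, 0 members and 2.64% of genes had a p-value of 0.05 or less. In limma, 0 of the 8 members and 0 of 15192 genes passed an adjusted p of 0.05. An unadjusted p of 0.05 or less was found for 0 members and for 148 genes (0.974%).

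TWIST1 had 7.03, 1.79 and 2.63 normalized counts in treated libraries 4, 5 and 6, and 6.98, 5.37 and 4.06 in untreated libraries 1, 2 and 3. Treated library 4 was as high as the highest untreated library, and the other two treated libraries lay below all untreated ones. The means were 3.82 ± 2.82 and 5.47 ± 1.46 (SD, n = 3 each), a log2 ratio of -0.52 with p = 0.5 in the two-sided exact permutation test. That ratio was -1.31 without treated library 4 and -0.18 without treated library 5. The limma interval ran from -1.70 to 0.59 on the log2(value + 1) scale. TWIST2 averaged 10.6 normalized counts in both groups, with 9.06, 7.33 and 15.4 in the treated and 11.3, 5.47 and 15.1 in the untreated libraries (exact permutation test, p = 1). In both groups of TWIST2 there was 1 library near 15 and the others were lower.

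SNAI2 had a wide spread in both groups. The treated libraries had 122, 41.5 and 39.1 normalized counts and the untreated libraries 83.5, 28.1 and 53.2. Treated library 4 was the highest of all 6, and without it the log2 ratio changed from 0.30 to -0.45. SNAI1 had 29.2, 30.5 and 50.4 normalized counts with vitamin-C and 41.7, 30.1 and 28.7 without, a log2 ratio of 0.13 that was -0.17 without treated library 6. The exact permutation test gave p = 0.8 for SNAI2 and p = 0.6 for SNAI1.

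**Figure D3:**
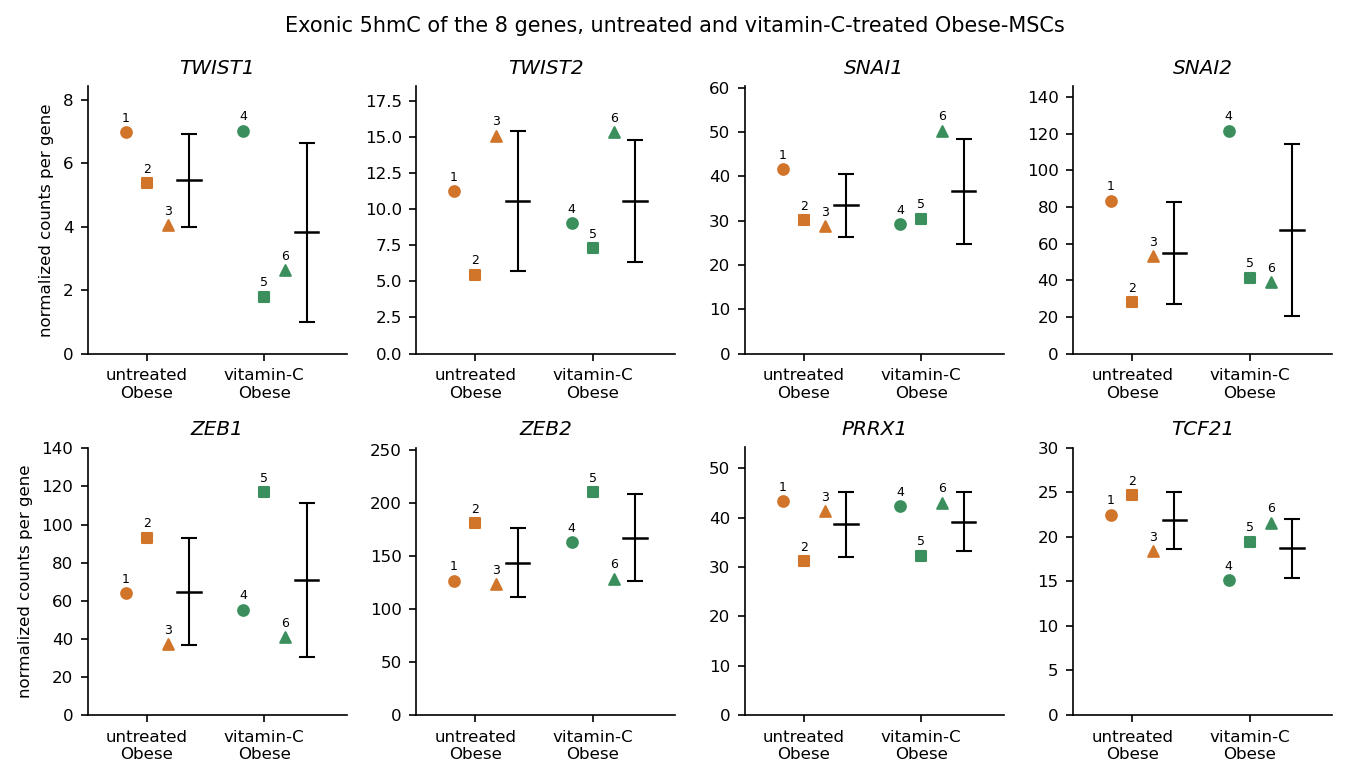
Exonic 5hmC in normalized counts (vertical axes, from 0) of each member in the 3 untreated (orange) and the 3 vitamin-C-treated (green) Obese libraries, with library numbers beside the points and the mean ± SD as a bar to their right. Untreated and treated libraries overlap for all 8 members.

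ZEB2 had 163, 210 and 129 normalized counts in the treated libraries and 127, 181 and 123 in the untreated ones. The means of 167 ± 41.0 and 144 ± 32.4 (SD, n = 3 each) differed by a log2 ratio of 0.22 (exact permutation test, p = 0.5). ZEB1 had 55.3, 117 and 40.9 normalized counts with vitamin-C and 63.9, 93.1 and 37.1 without, with a log2 ratio of 0.14 (exact permutation test, p = 0.8). Both ZEB genes were highest in treated library 5 and in untreated library 2. PRRX1 had 42.2, 32.3 and 43.0 normalized counts in the treated and 43.3, 31.2 and 41.3 in the untreated libraries, with a ratio of means of 1.02. Treated library 5 and untreated library 2 were the lowest. TCF21 had 15.1, 19.4 and 21.6 normalized counts with vitamin-C and 22.5, 24.6 and 18.4 without, a log2 ratio of -0.22. The exact permutation test gave p = 0.7 for PRRX1 and p = 0.4 for TCF21, and the limma intervals were -0.56 to 0.60 and -0.86 to 0.43.

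**Figure D4:**
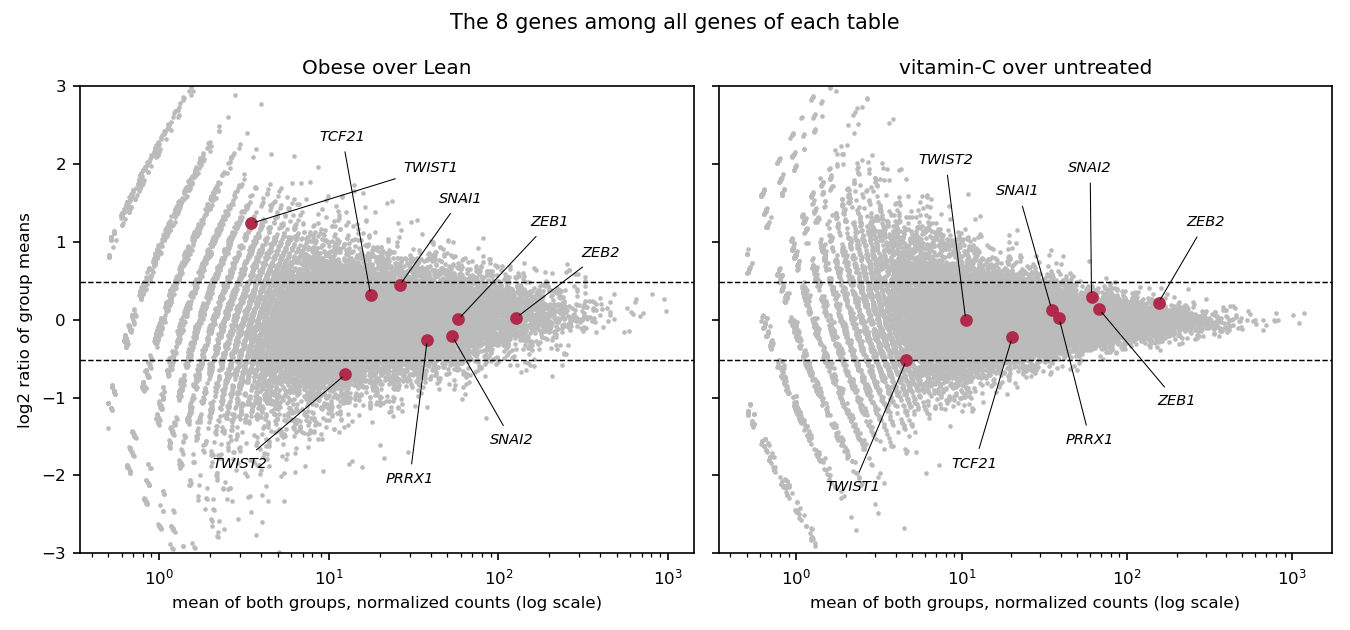
Log2 ratio of group means (vertical axes) against the mean of both groups in normalized counts (horizontal log axes) for all genes of each table with a mean above 0.5, within ratios of ±3 on the log2 scale (grey), and the 8 members (red). Dashed lines mark ratios of 1.4 and 0.7, and TWIST1 at 1.24 for Obese over Lean lies among low genes whose ratios spread widely.

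Treated and untreated libraries resembled each other in a regular way. Over 15192 genes, the deviations of log2 values from their group means correlated at 0.259 between treated library 4 and untreated library 1, at 0.340 between 5 and 2, and at 0.149 between 6 and 3. The other 6 combinations lay between -0.225 and -0.03. These correlations are over genes, and the deviations of a group sum to 0, so they are a description. With libraries matched in this way, which was chosen after seeing the data, the 3 treated values of TWIST2, ZEB1 and ZEB2 had the same order as the 3 untreated ones. Such a shared order was found for 3 of the 8 members and for 25.7% of all genes compared. ZEB2 was higher in the treated library of all 3 matched pairs, with log2 ratios of 0.36, 0.22 and 0.06. PRRX1 had log2 ratios of -0.04, 0.05 and 0.06, within 0.06 of 0 in every pair. TWIST1 had 0.01, -1.58 and -0.63. A limma fit with these pairs as a block gave no adjusted p of 0.05 or less. The interval of ZEB2 was -0.09 to 0.51 with the block and -0.30 to 0.72 without it. Because the pairs were chosen from the same values, the block interval may be too narrow.

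**Figure D5:**
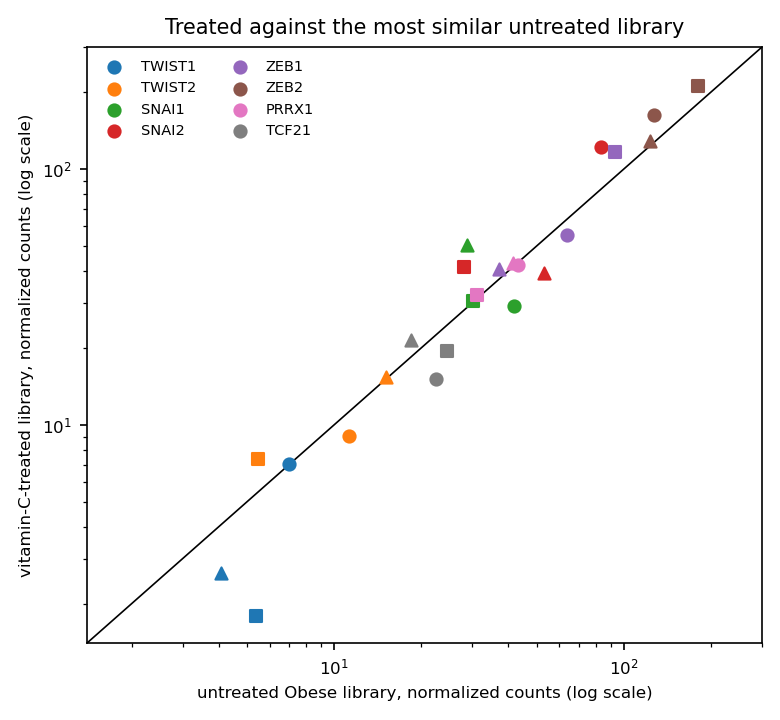
Normalized counts of each member in a vitamin-C-treated library (vertical log axis) against those in the untreated library most similar over all genes (horizontal log axis), with circles for libraries 4 and 1, squares for 5 and 2, triangles for 6 and 3, and a line of equality. PRRX1 lies on the line in all pairs, and TWIST1 lies below it for libraries 5 and 2 and for 6 and 3.

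Other genes of the same circuit were listed by role, and these lists are described here by counts and medians. In either direction 4.5% of all genes were called for Obese over Lean and 1.92% with vitamin-C. The bHLH partners and inhibitors of TWIST (the E proteins TCF3, TCF4 and TCF12, the ID inhibitors, and the related HAND1, HAND2, TCF15, MSC and SCX) had 0 of 12 genes called in either comparison. ID4, an inhibitor that sequesters E proteins, had the smallest p-value in Obese-MSCs. It had 4.46, 8.57 and 7.05 normalized counts in Obese-MSCs against 4.43, 1.98 and 2.06 in Lean-MSCs, so that the lowest Obese and the highest Lean library nearly touched (exact permutation test, p = 0.1, limma adjusted p = 0.738). With quantile normalization ID4 was called high. ID3 had the smallest p-value of this list with vitamin-C, with overlapping groups and means of 2.50 and 1.46 normalized counts. The median log2 ratio of the list was 0.11 for Obese over Lean and -0.07 with vitamin-C.

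Of 21 other mesenchymal transcription factors in the first table, 0 were called high and 1 low in Obese-MSCs. Over all genes 2.07% were called high and 2.43% low. For SIX2, a homeobox factor of mesenchymal progenitors, Obese libraries gave 2.46, 0.937 and 0.0469 normalized counts, and Lean libraries 10.1, 9.93 and 7.21. Its groups were far apart, with means of 1.15 ± 1.22 and 9.09 ± 1.63 (SD, n = 3 each), although each Obese value amounts to a few reads at most. The call held with any 1 library left out, while the unadjusted limma p of SIX2 was 0.000455 and the adjusted p 0.583. WT1, a zinc finger factor of mesothelium, did not overlap either, with means of 52.9 ± 13.1 in Obese and 34.5 ± 2.53 in Lean libraries (SD, n = 3 each). LEF1, an effector of WNT signalling, averaged 38.1 ± 6.23 and 47.9 ± 3.88 (SD, n = 3 each) without overlap. WT1 and LEF1 did not meet the criteria, and they were named after their values were seen. After vitamin-C 0 of 22 genes of this list were called, and the smallest p-value was that of FOXF1, at 185 ± 23.5 treated and 139 ± 27.3 untreated (SD, n = 3 each, exact permutation test, p = 0.2). The median log2 ratio of the list was -0.15 for Obese over Lean and 0.16 with vitamin-C.

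The corepressors and stability regulators, through which Snail and ZEB factors act or are degraded, had 0 of 17 genes called in either comparison. Their median log2 ratio was 0.04 for Obese over Lean and 0.07 with vitamin-C. HDAC2 had the smallest p-value in Obese-MSCs, with means of 7.33 and 4.56 normalized counts and overlapping groups. CTBP1, the corepressor bound by ZEB factors, had the smallest with vitamin-C, at 4.35 ± 1.76 treated and 2.09 ± 0.855 untreated (SD, n = 3 each). Its groups did not overlap, with 3.02, 3.68 and 6.35 treated against 2.61, 1.11 and 2.56 untreated, values of a few reads. With vitamin-C 2 of 17 genes were higher without overlap, against 3.24% of all genes. In Obese-MSCs 1 of 17 was lower without overlap, against 6.06%. The histone acetyltransferase gene EP300 did not overlap in either comparison and was named after its values were seen. It averaged 46.4 normalized counts in Obese libraries against 60.1 in Lean ones, and 63.6 treated and 51.7 untreated in the second table, where the untreated libraries are the same Obese libraries.

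Mesenchymal structural and surface genes, many of them induced when TWIST and Snail factors are active, had 2 of 23 genes called high and 0 low in Obese-MSCs. The shares over all genes were 2.07% and 2.43%. The type III collagen gene COL3A1 had 299.9, 275 and 379 normalized counts in Obese-MSCs against 182, 224 and 206 in Lean-MSCs, with a log2 ratio of 0.64. The mesenchymal cadherin gene CDH11 had 62.0, 71.1 and 68.2 against 53.0, 45.7 and 39.1, with a log2 ratio of 0.55. Both genes had every Obese library above every Lean library (exact permutation test, p = 0.1), and limma gave an adjusted p of 0.668 for COL3A1 and 0.703 for CDH11. CDH11 lost its call without Lean library 9, and COL3A1 without Obese library 1 or any of the Lean libraries. With quantile normalization CDH11 kept its call and COL3A1 lost it. The groups did not overlap for 5 of the 23 genes, all high in Obese-MSCs, against 5.7% of all genes. Besides COL3A1 and CDH11 these were VIM, FN1 and SPARC, named after their values were seen, with log2 ratios of 0.34, 0.26 and 0.32, short of the fold threshold. The ratio was above 1 for 20 of the 23 genes, against 51.2% of all genes, and their median log2 ratio was 0.24, against 0.01 over all genes. With other scalings or 1 library left out, 17 to 21 of the 23 genes had a ratio above 1 and the median log2 ratio was between 0.17 and 0.35. After vitamin-C 0 of 23 were called, and the median log2 ratio was 0.09. The treated over untreated ratio was above 1 for 17 of the 23 genes, against 51.2% of all genes. With other scalings or 1 library left out, 14 to 17 were above 1 and the median lay between 0.04 and 0.15.

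Of the epithelial genes that SNAI and ZEB factors repress or that oppose them, 1 of 25 was called high and 0 low in Obese-MSCs. The shares over all genes were again 2.07% and 2.43%. The called gene was the keratin gene KRT8, which averaged 3.18 ± 0.841 against 1.42 ± 0.699 normalized counts (SD, n = 3 each), values of a few reads. It was called without Obese library 1 or Lean library 7, but not without any of the others. With quantile normalization KRT8 also lost its call. OVOL1, an epithelial repressor of ZEB1, did not overlap, with 15.4 ± 1.83 and 9.69 ± 3.02 (SD, n = 3 each), and was called high with size factors. With vitamin-C 2 of 25 were called high and 0 low, against 1.11% and 0.806% of all genes. The tight junction gene CLDN7 had 8.05, 8.32 and 8.96 normalized counts in the treated and 4.34, 3.24 and 3.90 in the untreated libraries. The polarity gene LLGL2 had 9.06, 13.9 and 16.2 in the treated and 6.04, 5.38 and 6.45 in the untreated libraries. CRB3, another gene of epithelial polarity, did not overlap and averaged 9.02 ± 3.15 treated and 4.10 ± 1.98 untreated (SD, n = 3 each). All of these were about 2-fold higher in treated cells, with log2 ratios of 1.14 for CLDN7, 1.13 for LLGL2 and 1.14 for CRB3. The untreated values of these genes amount to a few reads per library. The exact permutation test gave p = 0.1 for each. CLDN7 kept its call with any 1 library left out, and LLGL2 kept it without treated library 4 but lost it without each of the others. The limma adjusted p was above 0.99 for all. With vitamin-C the list as a whole had a median log2 ratio of -0.03, with 12 of 25 genes above a ratio of 1. For Obese over Lean its median was 0.04, with 14 of 25 above 1. OVOL1 and CRB3 were named after their values were seen.

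Markers of other cells of adipose tissue were described by counts, ratios and summed levels. Of 5 endothelial markers 1 was called low in Obese-MSCs, against 2.43% of all genes. This was the angiopoietin receptor gene TEK, at 26.4 ± 4.35 against 41.3 ± 3.06 (SD, n = 3 each). Every Obese library lay below every Lean library for TEK (exact permutation test, p = 0.1), and its limma adjusted p was 0.694. The other markers overlapped between diets, and 3 of the 5 had a ratio above 1. Obese over Lean ratios were 1.39 for CDH5, 1.10 for PECAM1, 1.05 for VWF and 0.962 for KDR. The summed level of these 5 markers was between 227 and 231 in the Obese and between 186 and 264 in the Lean libraries. In the second table it was between 193 and 246 in treated and between 252 and 257 in untreated libraries, with 0 of 5 called. There 4 of the 5 had a ratio below 1. The groups did not overlap for 1 of them, CDH5, which was lower in treated libraries at a ratio of 0.805. Of all genes, 2.67% were lower without overlap. The 5 adipocyte markers had 0 called in either comparison and summed to between 113 and 132 in the Obese and between 104 and 141 in the Lean libraries. None of these lists had a defining marker at 0 in all libraries. The part of other cell types in the results on the 8 factors was not tested.

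The genes with the pattern most like TWIST1 were sought over the 6 libraries of each table, among 14814 genes that were in the upper 80% of each table. Taking the lower of the Pearson correlations in the 2 tables, DRC1 had 0.95, ZNF292 0.937, LOC110255411 0.936, ATMIN 0.920 and ZFYVE16 0.912. With 6 libraries each, 3 of which are in both tables, and so many genes compared, values of this size are a description of these libraries.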

How the data were processed

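The authors aligned paired hMeDIP-seq reads to susScr 11.1 with Bowtie 2 (2.3.3.1 in the submitters' processing notes), removed duplicates with Picard (1.67), counted reads over exons with HTSeq (0.9.1) and processed the counts with edgeR (3.28.1). The deposited values are a normalized 5hmC signal per gene, fractional and never negative, in 2 tables normalized separately. Totals per library lay between 494566 and 593846. Depth in reads is not known exactly, so no counting interval was computed. Values of numerical residue, 645 in the second table, were set to 0.

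Genes were called by applying the study's stated p-value and fold thresholds to the deposited values, with an equal-variance test, and every count of calls is from this computation. limma 3.58.1 (R 4.3.3) was fitted within each table to log2(value + 1) with a trend, over the upper 80% of genes by mean, with Benjamini-Hochberg adjustment. The pseudocount of 1 understates changes of low genes. Values of a single gene were compared by exact permutation, two-sided. Each p-value sets a difference between groups against the variation between libraries, and the labels do not say whether Obese libraries share an animal. Python 3.11.15, scipy 1.17.1 and matplotlib 3.10.9 were used, and positions came from RefSeq. The fits were also run on simulated data, in which only genes of the upper 50% by mean were changed and libraries were independent. Those runs do not bear on low values such as those of TWIST1 or on libraries that resemble each other.

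The members and lists were chosen with earlier results of these data known. All members were named, and from each list the called genes, up to 4 by smallest p-value, or else the gene of smallest p-value. Other thresholds, filters, pseudocounts, scalings and libraries left out were tried. Treated and untreated libraries were also matched. Columns of both tables were all used.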

Additional observations from a re-analysis of the deposited data

How the results depend on the processing

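The count of members that met the study's criteria in Obese-MSCs was 1, and it was 0 at a p-value threshold of 0.01 and between 0 and 1 with 1 library left out. Genes of the related lists numbered 4 in that comparison, 1 at the threshold of 0.01 and between 3 and 7 with 1 library left out, the highest without untreated Obese library 3. With vitamin-C they numbered 2, then 1 at 0.01 and between 1 and 3 with 1 library left out, the lowest without untreated library 2. Over all genes the threshold of 0.01 left 216 of 852 and 66 of 364. The number past limma's adjusted p in Obese-MSCs was 0 to 1 over all genes with 1 library left out, the 1 arising without untreated Obese library 1 or 2, and 0 among the members in all 13 alternatives. No member was called with vitamin-C in any of the 11 alternatives.

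Signs of small log2 ratios changed, and the cause was not tested. For Obese over Lean, ZEB1 was at -0.0022 with size factors, -0.045 with quantile normalization, -0.073 on log2 values and -0.0048 by medians, and ZEB2 at -0.033 with quantile normalization and -0.20 by medians. With 1 library left out, ZEB1 ranged from -0.34 to 0.28, ZEB2 from -0.16 to 0.13, SNAI2 from -0.65 to 0.12 and TCF21 from -0.0090 to 0.72. With vitamin-C, TWIST2 was at 0.034 on log2 values, SNAI2 at -0.36 and ZEB1 at -0.21 by medians. With 1 library left out, TWIST2 ranged from -0.37 to 0.34, SNAI1 from -0.17 to 0.32, SNAI2 from -0.45 to 0.73, ZEB1 from -0.43 to 0.49 and PRRX1 from -0.11 to 0.14. TWIST1, TWIST2, SNAI1 and PRRX1 in Obese-MSCs, and TWIST1, ZEB2 and TCF21 with vitamin-C, kept their sign in all 10 alternatives, but their sizes moved with 1 library left out. In Obese-MSCs TWIST1 ranged from 0.96 to 1.63, TWIST2 from -1.07 to -0.35, SNAI1 from 0.24 (without untreated Obese library 1) to 0.67 (without Lean library 8) and PRRX1 from -0.35 to -0.11 (without untreated Obese library 2). With vitamin-C TWIST1 ranged from -1.31 to -0.18, ZEB2 from 0.02 (without treated library 5) to 0.42 (without untreated library 2) and TCF21 from -0.34 (without treated library 6) to -0.09 (without treated library 4). No paired analysis from the labels was possible because the groups share no replicate number.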
